A study of Homo sapiens with 18 samples.

Results

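The urea cycle genes were followed through RNA-seq libraries of Hep3B cells, a human hepatoma line, using 8 members taken by name from the deposited count table, which lists 36684 genes. They are NAGS, CPS1, OTC, ASS1, ASL and ARG1, which encode the enzymes of the cycle and of its activator, and SLC25A15 and SLC25A13, which encode its mitochondrial carriers. All 8 were found in the table, and 7 of them passed the filter on low counts that left 14557 genes for testing. OTC did not pass it.

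The 18 libraries fell into 6 groups of 3. Con was Hep3B without the fatty acid model, and Model was Hep3B with steatosis induced by free fatty acids (FFA). The next groups received FFA together with fucoxanthin (FUCO), a carotenoid of brown algae, at 0.5, 1 or 2 μM (FUCO-0.5, FUCO-1 and FUCO-2). The last group received FFA together with Resmetirom (RES), an agonist of thyroid hormone receptor beta that served as the positive control. The 5 groups other than Con therefore all carried the FFA treatment. The sources used here give no FFA concentration, exposure time or RES dose for these libraries, and all of them came from 1 transformed cell line. The methods call the replicates biological without saying how separate the cultures were, so p-values measure the spread between these libraries.

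The urea cycle turns ammonia, which is toxic to the brain, into urea for excretion, and in the body it runs mainly in periportal hepatocytes. Its first steps take place in mitochondria, where N-acetylglutamate made by NAGS switches on CPS1, CPS1 joins ammonia and bicarbonate into carbamoyl phosphate, and OTC joins that to ornithine to give citrulline. Citrulline then leaves for the cytosol, where ASS1 condenses it with aspartate, ASL splits the product into arginine and fumarate, and ARG1 releases urea and returns ornithine. SLC25A15 (ORC1) exchanges ornithine and citrulline across the inner mitochondrial membrane, and SLC25A13 (citrin) exports the aspartate that ASS1 uses.

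Library totals ran from 16916688 to 23083498 counts, more than the average raw read number in the methods, and why was not tested. Reads carried no molecular identifiers, so counting intervals cover counting error only. On the first principal component, which held 47.0% of the variance of the tested genes, the 3 RES libraries lay between -64.3 and -61.6 and the other 15 between -0.30 and 23.7. All 9 hepatocyte markers were above 1 CPM in every group. CPM is the read count per library size in units of 1e6 counts, after TMM scaling. The summed markers ran from 62626 to 70524 CPM in Con, from 51948 to 52424 CPM in Model, from 35082 to 39385 CPM in FUCO-2 and from 15164 to 15573 CPM in RES. Over the libraries ALB ran from 7411 to 43307 CPM, but SERPINA1 only from 2216 to 3524 CPM. The sum therefore need not stand for each marker. Of the 5 stellate cell or fibroblast markers, COL3A1 and ACTA2 had no count, and PDGFRB reached 19.9 CPM, COL1A1 2.53 CPM and COL1A2 1.24 CPM. Their sum ran from 18.4 to 21.3 CPM in Con, from 13.02 to 16.5 CPM in Model and from 3.92 to 4.68 CPM in RES. The lower sum came from PDGFRB, which ran from 0.915 to 19.9 CPM over the libraries. Markers averaging at least 1 CPM numbered 3 of 5 in RES and 2 in every other group, so not all of them fell. The part of these markers in the results was not tested. Of the 3 endothelial markers, CDH5 had no count, VWF at most 1 count and PECAM1 at most 1.88 CPM. Leukocyte markers stayed under 0.4 CPM. Of the biliary markers, KRT19 and EPCAM were expressed and KRT7 had at most 5 counts. Within groups, some replicates stood apart by the chi-square per degree of freedom over genes. Con replicate 1 lay at 15.1 and 12.8 from its fellow replicates, which differed from each other by 2.26. FUCO-2 replicate 1 lay at 18.7 and 18.04, against 5.57 between its fellows. FUCO-0.5 replicate 2 lay at 10.1 and 17.3, against 5.69, and FUCO-1 replicate 3 at 9.71 and 10.7, against 4.39.

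On GRCh38.p14 (RefSeq), NAGS spans 44004622 to 44009068 of chromosome 17 and CPS1 spans 210477685 to 210679107 of chromosome 2. OTC spans 38327684 to 38422928 of chromosome X, ASS1 spans 130444707 to 130501274 of chromosome 9, and ASL spans 66075819 to 66093576 of chromosome 7. ARG1 spans 131573226 to 131584329 of chromosome 6, and SLC25A15 spans 40789611 to 40812460 of chromosome 13. SLC25A13 spans 96120220 to 96322098 of chromosome 7 and is the only member on the minus strand. The reference transcripts (MANE Select) have from 7 exons in NAGS and SLC25A15 to 38 in CPS1, and each count is a sum over the exons of its gene.

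Of the stretches upstream of the start sites, 3 are shown because RefSeq gives each a single start and because against Model, with RES, ARG1 was lower, SLC25A13 was higher and ASL was not called. Capitals mark the motif matches, on either strand. Each runs 5′ to 3′ along the gene from 250 bases before the start site to the end of its last match.
ARG1, chr6:131572976-131573202, plus strand: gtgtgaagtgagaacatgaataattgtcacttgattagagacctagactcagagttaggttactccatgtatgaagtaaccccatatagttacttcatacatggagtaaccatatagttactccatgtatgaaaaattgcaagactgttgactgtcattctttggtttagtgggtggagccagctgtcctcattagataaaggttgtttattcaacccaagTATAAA
ASL, chr7:66075569-66075747, plus strand: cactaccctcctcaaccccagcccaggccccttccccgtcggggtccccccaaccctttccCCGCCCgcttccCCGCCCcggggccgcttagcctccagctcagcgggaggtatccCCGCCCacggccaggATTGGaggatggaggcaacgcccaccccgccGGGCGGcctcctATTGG
SLC25A13, chr7:96322139-96322348, minus strand: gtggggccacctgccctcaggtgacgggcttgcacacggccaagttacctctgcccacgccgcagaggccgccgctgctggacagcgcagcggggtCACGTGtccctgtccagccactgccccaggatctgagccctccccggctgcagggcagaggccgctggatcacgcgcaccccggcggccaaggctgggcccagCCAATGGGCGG

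The ARG1 stretch carries TATAAA, the letters of a TATA box, from 29 to 24 bases before the start. Of 35116 RefSeq promoter windows of 250 bases, 10.7% held TATAAA on either strand. ASL carries GGGCGG (the GC box) 4 times and CCAAT 2 times, letters held by 42.6% and 32% of the windows. SLC25A13 carries CACGTG (the E-box, in 6.34% of the windows), and its CCAAT and GGGCGG adjoin. ARG1 had the lowest share of G and C over its window, 37.6%, next to 40.4% in OTC. The other windows held from 65.6% in NAGS to 79.6% in SLC25A15, and the median of all windows was 58.0%. ASS1 matched GGGCGG 2 times and CACGTG 1 time, and OTC matched TATAAA from 192 to 187 bases before its start. AGGTCA, a nuclear receptor half-site (12.1% of the windows), TGACGT, a cAMP response element core (7.1%), and TGATGNAA, the letters of a composite C/EBP and ATF element (3.14%), were in none of the 7 windows read. For CPS1 the promoter table has no window at the reference start, so none was read. These matches describe letters only and say nothing of binding.

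The transcripts of the cycle were present at very unequal levels in Hep3B. Scaled by transcript length, ASS1 was the most abundant, with a mean of 272 CPM per kb over the 18 libraries. It was followed by SLC25A13 with 33.3 and ASL with 14.9 CPM per kb, so the cytosolic enzymes of arginine synthesis and the aspartate carrier led. SLC25A15 had 3.33, ARG1 had 1.87 and NAGS had 1.75 CPM per kb. The mitochondrial enzymes stood last, CPS1 at 0.427 and OTC at 0.117 CPM per kb. The single libraries of ASS1 ran from 141 to 376 CPM per kb and those of SLC25A13 from 29.9 to 37.2, so these neighbors in the order did not overlap. Libraries of ARG1 ran from 0.595 to 3.59 CPM per kb and overlapped both neighbors, SLC25A15 from 2.73 to 4.02 and NAGS from 0.940 to 2.697. Compared within each library, ARG1 lay below SLC25A15 in all but Con replicate 2. Against NAGS it lay above in some libraries and below in others, so these neighbors are not told apart in rank. CPS1, from 0.0981 to 0.717, overlapped OTC, whose highest library had 0.240, but only across groups. Within each library CPS1 lay above OTC, and in RES the means were 0.107 and 0.0295 CPM per kb.

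**Figure D1:**
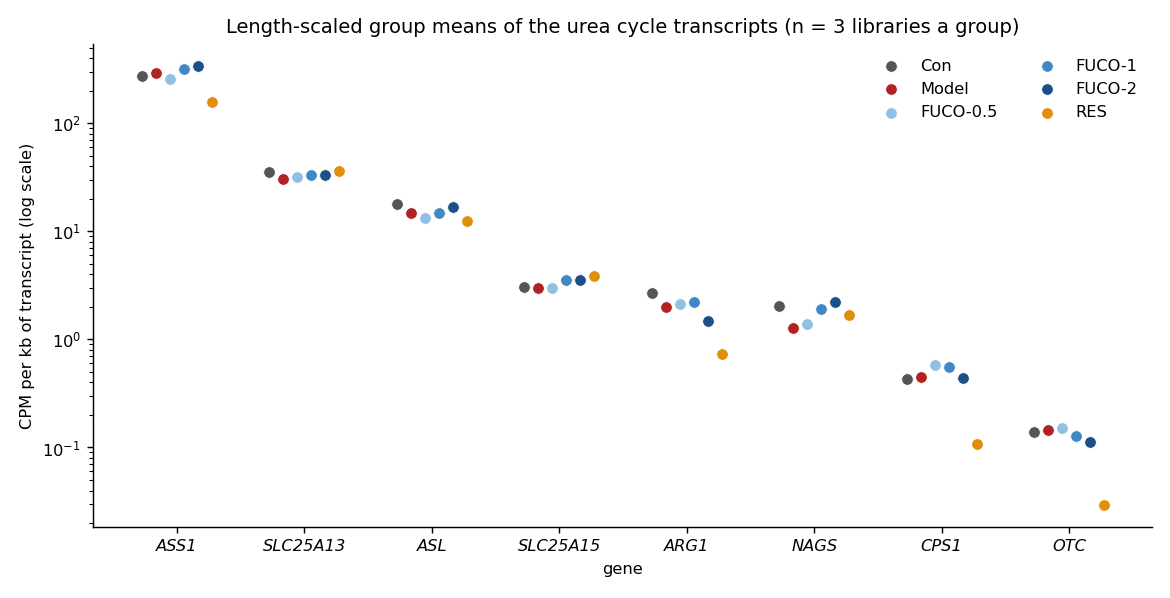
Group means of the 8 urea cycle transcripts in CPM per kb of the reference transcript, on a log axis, with 1 point for each of the 6 groups (n = 3 libraries). ASS1 lies at the top, and CPS1 and OTC lie at the bottom in every group, with RES the lowest point for ASS1, ASL, ARG1, CPS1 and OTC.

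RES gave the clearest changes of the urea cycle genes. Against Model, CPS1, ARG1 and ASS1 were lower and both carriers were higher, whereas NAGS and ASL did not pass the test. The main test was edgeR's quasi-likelihood test over all 18 libraries, with Benjamini-Hochberg adjustment over the 14557 genes and a call at an adjusted p under 0.05. By that rule 25.1% of the tested genes were lower and 24.4% higher in RES than in Model, and the urea cycle genes gave 3 lower and 2 higher of 7. The median log2 fold change was -0.24 over the 7 members and 0.002 over all tested genes. Where an absolute log2 fold change over 1 was also required, 6.92% of the tested genes were lower and 3% higher, and CPS1 and ARG1 were the members left. In bulk libraries, fewer cells with a transcript and less of it in each cell cannot be told apart. The summed hepatocyte markers moved with the RES group, as given above, and their part in these results was not tested.

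**Figure D2:**
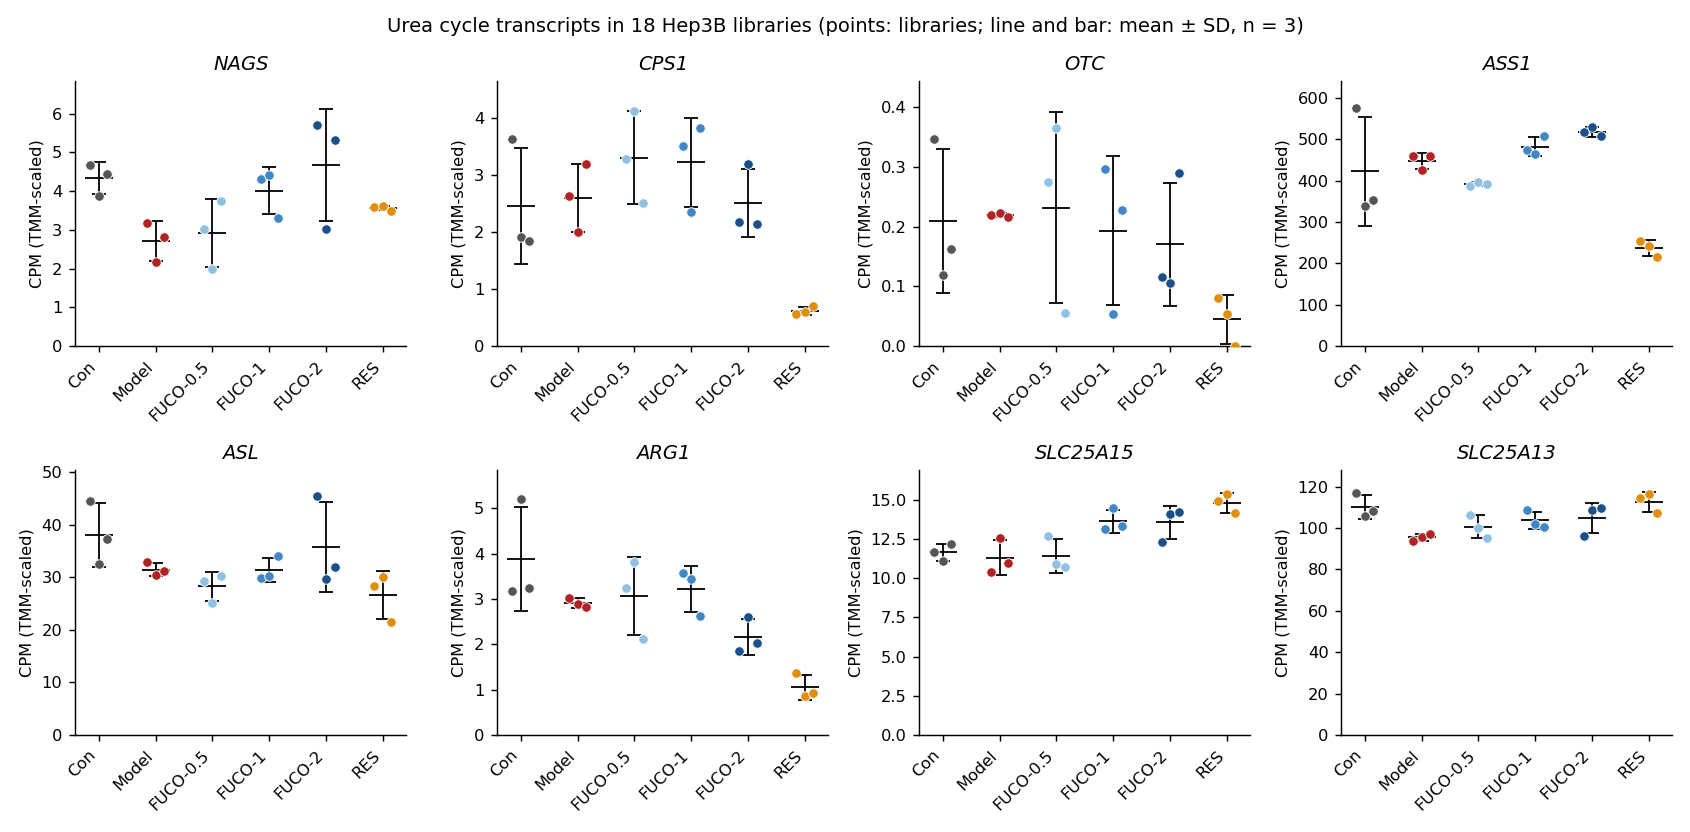
Levels of the 8 urea cycle transcripts in CPM (TMM-scaled, each axis starting at 0), with 1 point per library in replicate order and a line and bar for the mean and SD of each group (n = 3). The RES libraries lie below every other library for CPS1, ARG1 and ASS1, and OTC stays under 0.4 CPM throughout.

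NAGS makes N-acetylglutamate, the obligate activator of CPS1. Its Model libraries held 3.18, 2.17 and 2.82 CPM and its RES libraries 3.59, 3.61 and 3.50 CPM. The RES libraries all lay above the Model ones, yet the log2 fold change of 0.39 (95% interval -0.078 to 0.85) had an adjusted p of 0.161 with edgeR and was not called.

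CPS1 is the entry enzyme of the cycle and its flux-controlling step. Its counts were 48, 36 and 59 in Model and 14, 11 and 15 in RES. In CPM these were 2.63, 2.00 and 3.20 in Model against 0.565, 0.592 and 0.700 in RES, and no library of the other 5 groups came as low as the RES libraries. The mean fell from 2.61 ± 0.597 to 0.619 ± 0.0711 CPM (SD, n = 3), which is 23.7% of the Model mean. The log2 fold change was -2.07 (SE 0.328, edgeR adjusted p = 1.23e-05), the largest of the 7 tested members.

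OTC forms citrulline and is known for the most common inherited urea cycle disorder. Its counts were 4, 4 and 4 in Model, 6, 2 and 3 in Con, and 2, 1 and 0 in RES. At this depth it was barely detected in any group, with at most 7 counts in a library. Summed over the 3 libraries, OTC had 12 counts in Model and 3 in RES, which is 0.215 CPM (exact Poisson interval at 95%, 0.111 to 0.375) and 0.0497 CPM (0.0103 to 0.145) without scaling of the library sizes. The intervals overlapped. When no filter was applied, the OTC log2 fold change was -2.09 with an edgeR adjusted p of 0.0722, and DESeq2 gave an adjusted p of 0.0975.

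ASS1, the cytosolic enzyme that binds citrulline to aspartate, was the most abundant member and so the best counted. Its Model libraries held 8374, 7669 and 8468 counts and its RES libraries 6298, 4507 and 4647. In CPM the Model libraries held 459, 427 and 459 and the RES libraries 254, 243 and 217, with no overlap. RES stood at 53.1% of the Model mean, with a log2 fold change of -0.91 (SE 0.123, edgeR adjusted p = 1.21e-06). The 13 pseudogenes of ASS1 in the table summed to between 2 and 11 counts per library, at most 0.156% of the ASS1 count.

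ASL, which releases arginine and fumarate, differed less. It held 32.8, 30.4 and 31.1 CPM in Model and 28.3, 30.0 and 21.5 CPM in RES, the highest RES library lying just under the lowest Model library. The log2 fold change was -0.24 (95% interval -0.53 to 0.041, edgeR adjusted p = 0.148), so ASL was not called against Model. A fit of only the Model and RES libraries called it, with nearly the same value (-0.25, edgeR adjusted p = 0.0231).

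ARG1, the liver arginase that closes the cycle, followed CPS1 in size of change. Its counts were 55, 52 and 52 in Model and 34, 16 and 20 in RES, or 3.02, 2.89 and 2.82 CPM against 1.37, 0.861 and 0.933 CPM. Every RES library lay below every library of the other groups. The log2 fold change was -1.43 (SE 0.263, edgeR adjusted p = 7.76e-05), which left 36.3% of the Model mean. ARG1 overlaps MED23, a Mediator subunit gene on the opposite strand, although their reference transcripts share 0 exon bases. The counting strand is not given in the sources used here, so reads of the overlap cannot be assigned with certainty. MED23 held 58.5 ± 3.15 CPM in Model and 64.5 ± 2.12 CPM in RES (SD, n = 3), a log2 fold change of 0.14 (edgeR adjusted p = 0.138).

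Both carriers were higher with RES, by small amounts. SLC25A15, the ornithine carrier, held 10.4, 12.6 and 10.9 CPM in Model and 14.9, 15.3 and 14.1 CPM in RES. The groups did not overlap, and the log2 fold change was 0.39 (SE 0.103, edgeR adjusted p = 0.00312). SLC25A13, the aspartate-glutamate carrier of liver, held 93.9, 95.6 and 97.3 CPM in Model and 114, 116 and 107 CPM in RES, a log2 fold change of 0.24 (SE 0.0698, edgeR adjusted p = 0.00700). Its RES mean was 118% of the Model mean, again with no overlap. Part of SLC25A15 overlaps the pseudogene TPTE2P5, which was not analysed here.

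**Figure D3:**
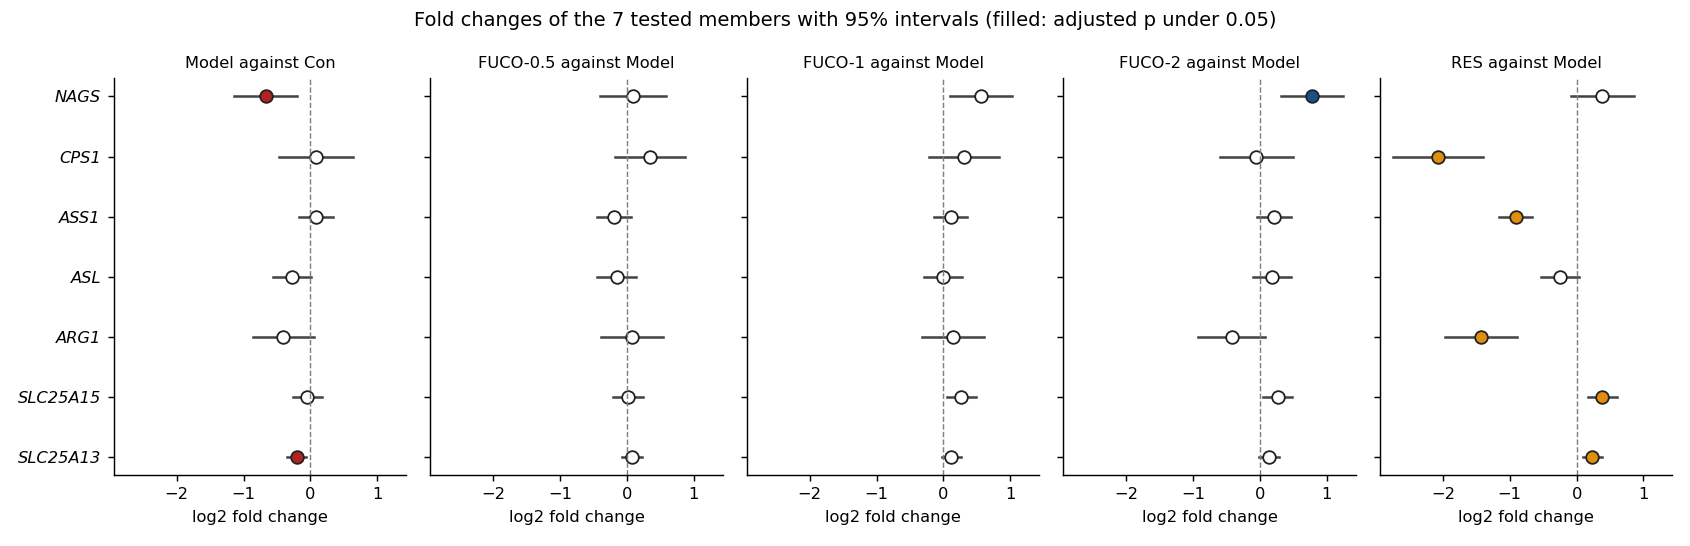
Log2 fold changes of the 7 tested urea cycle genes in 5 comparisons, with 95% intervals, where filled points had an adjusted p under 0.05 in edgeR. Filled points number 2 for Model against Con, 0 for FUCO-0.5 and FUCO-1, 1 for FUCO-2 and 5 for RES, and CPS1 with RES lies farthest from 0.

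Set against Con instead of Model, RES gave 4 members lower and 1 higher, where 28.5% of all tested genes were lower and 28.8% higher. CPS1 (-1.98), ARG1 (-1.84) and ASS1 (-0.83) were again lower on the log2 scale. ASL passed against Con, where it held 44.4, 32.4 and 37.3 CPM, all above the RES libraries (log2 fold change -0.52, SE 0.137, edgeR adjusted p = 0.00233). SLC25A15 was higher by 0.34, whereas SLC25A13 did not differ beyond its spread (0.03, edgeR adjusted p = 0.730). The comparisons with Con and with Model share the RES libraries and are not independent.

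With FFA alone, 2 of the 7 tested urea cycle genes passed the test. Model was lower than Con for NAGS and SLC25A13, where 9.12% of the tested genes were lower and 8.43% higher. NAGS held 4.68, 3.88 and 4.43 CPM in Con and 3.18, 2.17 and 2.82 CPM in Model. The groups did not overlap, with a log2 fold change of -0.67 (SE 0.226, edgeR adjusted p = 0.0421). SLC25A13 held 117, 106 and 108 CPM in Con, above all 3 Model libraries given above, with a log2 fold change of -0.21 (SE 0.0701, edgeR adjusted p = 0.0441). Both calls lay near the threshold. NAGS lost its call in 7 of the 18 fits that left out 1 library each, among them those without any 1 of the Con libraries or without Model replicate 2 (edgeR adjusted p up to 0.178). SLC25A13 lost it in 10 of the 18, including those without any 1 of the Con or Model libraries (edgeR adjusted p up to 0.130).

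ASS1 showed how far 1 library can carry a group. Con held 575, 338 and 353 CPM of ASS1, so that replicate 1 stood above every Model library and the other two stood below them. The log2 fold change of Model against Con was 0.09 (edgeR adjusted p = 0.687) with all libraries and 0.37 (edgeR adjusted p = 0.000790) without Con replicate 1. It was -0.05 without Con replicate 2 and -0.03 without Con replicate 3. The same Con library was also the highest of its group for CPS1 (3.64 against 1.91 and 1.84 CPM), ASL, NAGS and SLC25A13, the last 2 being the members called in Model against Con. Its library total, 18325053 counts, was within the range of the other libraries. For ARG1, Con held 3.18, 5.19 and 3.25 CPM, all above the Model libraries, but the difference did not pass (log2 fold change -0.41, edgeR adjusted p = 0.224). CPS1, SLC25A15 and ASL gave 0.09, -0.04 and -0.28, and none of them was called, although ASL was called when no filter on low counts was applied (-0.28, edgeR adjusted p = 0.0426).

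FUCO-0.5 gave no call among the 7 members. Of them 0 had an unadjusted p under 0.05 (edgeR), beside 1641 of the 14557 tested genes. DESeq2 also called 0. Over all genes 0.289% were higher and 1.16% lower. ASS1 held 388, 397 and 392 CPM, below all 3 Model libraries, with a log2 fold change of -0.19 (95% interval -0.44 to 0.059). The intervals of the other members were widest for CPS1 (-0.18 to 0.87) and narrowest for SLC25A13 (-0.070 to 0.22).

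FUCO-1 gave no call either with edgeR or DESeq2, where 0.893% of the tested genes were higher and 2.32% lower. NAGS and SLC25A15, 2 of the 7, had an unadjusted p under 0.05 (edgeR), as did 2375 of the 14557 tested genes. NAGS held 4.31, 4.42 and 3.31 CPM, all above Model, with a log2 fold change of 0.56 (SE 0.226, edgeR adjusted p = 0.196). A fit of those 2 groups alone called it (0.57, edgeR adjusted p = 0.0474). SLC25A15 held 13.1, 14.5 and 13.3 CPM, also above Model, with a log2 fold change of 0.27 (SE 0.105, edgeR adjusted p = 0.176).

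At the highest dose, FUCO-2, NAGS was higher than in Model, the only member called, where 10.8% of the tested genes were higher and 9.71% lower. The FUCO-2 libraries of NAGS held 5.70, 3.03 and 5.32 CPM. Replicates 1 and 3 lay above every Model library, and replicate 2 lay within the Model range. The log2 fold change was 0.77 (SE 0.224, edgeR adjusted p = 0.0156). The call was lost without Model replicate 2 (0.64, edgeR adjusted p = 0.0848), without FUCO-2 replicate 1 (0.61, edgeR adjusted p = 0.0803) and without FUCO-2 replicate 3 (0.67, edgeR adjusted p = 0.0610).

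None of the members that were lower with RES passed the test at 2 μM FUCO against Model. CPS1 held 2.19, 3.19 and 2.14 CPM, and its log2 fold change against Model was -0.05 (95% interval -0.60 to 0.49). ASS1 held 517, 531 and 507 CPM, all above the Model libraries, although the difference did not pass (0.21, 95% interval -0.041 to 0.46, edgeR adjusted p = 0.236). ARG1 held 1.84, 2.61 and 2.02 CPM, all below Model, with a log2 fold change of -0.42 (95% interval -0.92 to 0.074, edgeR adjusted p = 0.228). Against Con, ARG1 was the member called lower in FUCO-2 (-0.83, SE 0.233, edgeR adjusted p = 0.0105), where 11.9% of the tested genes were lower and 13% higher. SLC25A15 at 12.3, 14.1 and 14.2 CPM gave 0.26 against Model (edgeR adjusted p = 0.0808). ASL gave 0.18, with 1 library at 45.5 CPM and the others at 29.7 and 31.9 CPM, and SLC25A13 gave 0.13.

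Compared directly, RES lay below FUCO-2 for CPS1 (log2 fold change -2.02), ASS1 (-1.12), ARG1 (-1.01) and ASL (-0.43), each with an edgeR adjusted p of at most 0.0127. These were 4 lower of 7 members, where 26% of the tested genes were lower and 22.5% higher. The groups did not overlap for CPS1, ASS1 and ARG1, but they did for ASL. FUCO-2 held 45.5, 29.7 and 31.9 CPM of ASL and RES held 28.3, 30.0 and 21.5 CPM. The highest of these was FUCO-2 replicate 1, which stood apart from its fellows. The RES dose is not given, so these values stand for the treatments as applied and not for matched doses.

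Between the FUCO doses themselves, FUCO-2 exceeded FUCO-0.5 for ASS1 and NAGS, 2 higher of 7 members, where 8.43% of the tested genes were higher and 6.68% lower. All 3 FUCO-2 libraries of ASS1 lay above the FUCO-0.5 libraries, whereas those of NAGS overlapped. No member differed between FUCO-1 and either of the other doses past the test.

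Across the 6 groups, the CPS1 means ordered as FUCO-0.5 (3.31 CPM), FUCO-1 (3.23), Model (2.61), FUCO-2 (2.51), Con (2.46) and RES (0.619). No pair of neighbors in that order differed beyond its spread except Con and RES. The ARG1 means ordered as Con (3.87 CPM), FUCO-1 (3.21), FUCO-0.5 (3.06), Model (2.91), FUCO-2 (2.159) and RES (1.06), and here too the lowest neighbors, FUCO-2 and RES, were the pair that differed by the test (edgeR adjusted p = 0.00410). The group means of log2 CPM spanned 2.21 for CPS1, 1.76 for ARG1 and 1.13 for ASS1, against 0.23 for SLC25A13.

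The genes whose log2 CPM followed these patterns most closely over the 18 libraries were picked by Pearson's r. For CPS1 they were PID1 (r = 0.950), EPS8L3 (0.944) and F11, coagulation factor XI (0.942). For ARG1 they were KLF3 (r = 0.963), FAM13A-AS1 (0.951) and MTARC1 (0.944). PID1 went from 31.3 CPM in Model to 6.76 in RES, and MTARC1 from 52.3 to 34.2. These correlations describe 18 libraries in which the RES group stands apart, and carry no test.

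Around the cycle, the genes listed for ammonia and glutamine, not all of them suppliers of nitrogen, gave 2 higher and 6 lower of 13 tested with RES. Of all tested genes, 24.4% were higher and 25.1% lower. GLUD1, which releases ammonia from glutamate in mitochondria, went from 747 ± 57.3 CPM in Model to 163 ± 2.90 CPM in RES (SD, n = 3; log2 fold change -2.20, SE 0.0900). RHBG, an ammonia transporter, fell by 2.02 on the log2 scale. GLUL, the glutamine synthetase of perivenous hepatocytes, fell by 0.74, and GLUD2, an intronless copy of GLUD1 whose reads may be shared with it, fell by 0.72. The list's median was 0.20, opposite in sign to the majority of its calls, against 0.002 over all genes.

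Genes of arginine, ornithine and proline metabolism gave 5 higher and 7 lower of 16 with RES, against the same 24.4% and 25.1% of all tested genes, with a median of -0.25. ODC1, which turns ornithine into putrescine, rose from 138 ± 11.7 to 337 ± 13.4 CPM (SD, n = 3; log2 fold change 1.29). Lower were ALDH4A1 (-1.59) and PRODH (-1.34), which break down proline, and DDAH2 (-1.21), a dimethylarginine hydrolase. Genes of aspartate and fumarate metabolism gave 5 higher and 1 lower of 12, with a median of 0.12. SLC25A12, the aspartate-glutamate carrier of muscle and brain and the paralog of SLC25A13, rose from 0.913 ± 0.166 to 3.71 ± 0.562 CPM (log2 fold change 2.01, SE 0.256). ASNS, asparagine synthetase, was higher by 0.75 and GOT1, cytosolic aspartate aminotransferase, by 0.46, while PC, pyruvate carboxylase, fell by 0.50.

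Of the transcriptional regulators listed for these genes, 3 were higher and 8 lower of 15 with RES, again beside 24.4% higher and 25.1% lower over all tested genes, with a median of -0.27. CEBPA, known to be needed for urea cycle gene expression in liver, went from 165 ± 16.4 to 77.8 ± 8.49 CPM (SD, n = 3; log2 fold change -1.08, SE 0.141). KLF15 (-0.96) and CEBPD (-0.92) were also lower, and PPARGC1A, a coactivator of fasting metabolism, was higher by 0.97. Their part in the levels of the urea cycle genes was not tested. Each of the companion genes named here had an edgeR adjusted p under 0.05.

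**Figure D4:**
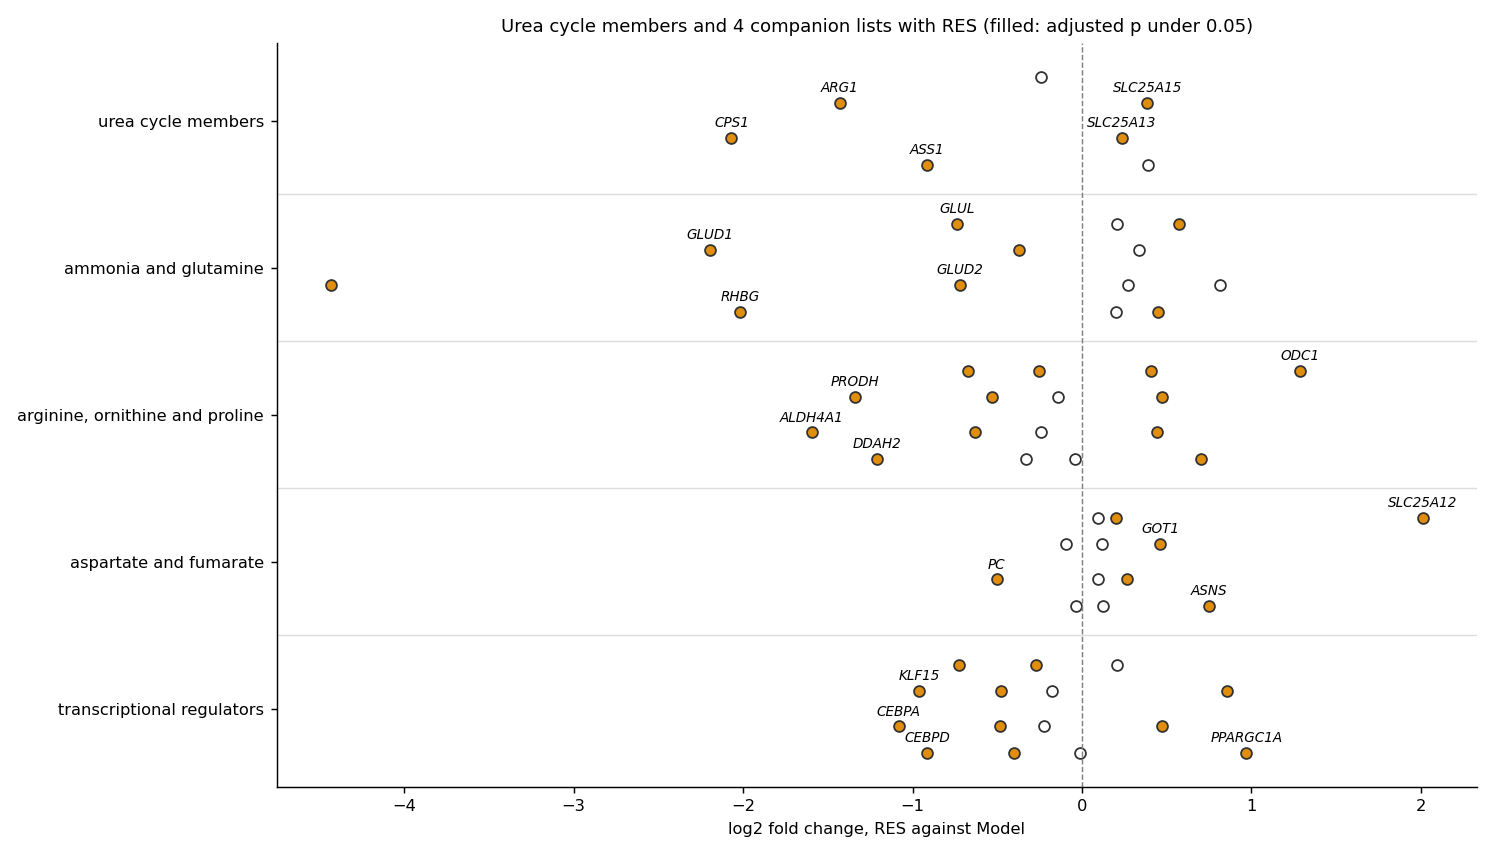
Log2 fold changes of RES against Model for the 7 tested urea cycle genes and the tested genes of 4 companion lists, where each point is a gene, filled points had an adjusted p under 0.05 in edgeR, and the named genes are those called among the members and those given in the text. Each list holds points on both sides of 0, with GLUD1 and RHBG near CPS1 on the lower side and SLC25A12 and ODC1 on the higher side. The lowest point, at -4.43, is an ammonia and glutamine gene left unnamed because it averaged under 1 CPM.

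In Model against Con, where 8.43% of all tested genes were higher and 9.12% lower, 3 of the 13 ammonia and glutamine genes were lower and none higher, namely GLUL (-0.49), SLC38A3 (-0.43), a glutamine transporter, and the desuccinylase SIRT5 (-0.25), which acts on CPS1. The arginine, ornithine and proline genes gave 4 higher and 5 lower of 16. PYCR3 of proline synthesis was higher by 0.73, and ALDH4A1 (-0.88), the arginine transporter SLC7A2 (-0.71) and DDAH1 (-0.64) were lower. GOT1 (-0.50) and PC (-0.38) were the 2 lower of 12 aspartate and fumarate genes. Of the 15 regulators, CEBPD was higher by 1.44, and 4 were lower, among them KLF15 (-0.83), PPARGC1A (-0.66) and CEBPA (-0.55).

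With FUCO-0.5 none of the 4 lists gave a call. With FUCO-1 the regulators gave 1 lower of 15, ONECUT1 (-0.37), where 2.32% of all tested genes were lower. With FUCO-2, where 10.8% of all tested genes were higher and 9.71% lower, the arginine, ornithine and proline genes gave 7 higher and 1 lower of 16, with a median of 0.22 against 0.010 over all genes. SLC7A1, the cationic amino acid transporter, rose by 0.47, ARG2, the mitochondrial arginase, by 0.44 and ODC1 by 0.43, while OAT, ornithine aminotransferase, fell by 0.41. The ammonia and glutamine genes gave 2 higher and 2 lower of 13, among them SLC1A5 (0.43) up and SLC38A3 (-0.42) and GLUD1 (-0.27) down. ASNS (0.52), ADSL (0.35) and MDH2 (0.28) were the 3 higher of 12 aspartate and fumarate genes. Among the regulators, KLF15 (0.94) and CEBPB (0.54) were higher and ONECUT1 (-0.59) and FOXA1 (-0.17) lower. The comparisons of Model with Con and of the treated groups with Model share the Model libraries, so values of opposite sign, as for KLF15 and ODC1, are not independent.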

How the data were processed

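The data were poly(A) RNA-seq of Hep3B cells, with 6 groups of 3 libraries assigned from the sample titles. The deposited values are raw read counts per gene, which the authors obtained with featureCounts from STAR alignments to GRCh38.p14 after fastp trimming. Their methods name GENCODE v46. The strand setting and the treatment of reads with several matches are not given in the sources used here. DESeq2 is named in the submitters' processing notes.

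Here the counts were tested with edgeR 4.0.16 in R 4.3.3. Genes passed filterByExpr (at least 10 counts in enough libraries, 15 in all), library sizes were scaled by TMM, and 1 quasi-likelihood model of the 18 libraries, with a coefficient for each group and a prior count of 0.125, gave all contrasts. P-values were adjusted by Benjamini-Hochberg over 14557 genes. The tested genes held 99.9% of all counts. DESeq2 1.42.0 and the other settings given at the end were alternatives. The procedure was tested on simulated data. Replicates differed beyond sampling noise (chi-square per degree of freedom from 2.26 to 18.7), so none was a copy of another. All were counted as separate samples, although these values cannot show that the cultures were separate.

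The 8 members, the companion lists and the rule for named genes were chosen with earlier results of these data known. All members are named. Of each companion list and comparison, the text names at most 4 called genes, those with the largest fold changes among genes averaging at least 1 CPM, and for the 2 members with the widest span of group means the 3 closest patterns. Some results of the companion lists are not reported here. Promoter windows (RefSeq, GRCh38.p14) equalled the hg38 letters in 7 of 7 cases.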

Additional observations from a re-analysis of the deposited data

Results flagged for a closer look

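Among the 3 FUCO doses, ASS1 and NAGS differed between the highest and the lowest dose by a test of that difference. The FUCO-2 libraries of ASS1 (517, 531 and 507 CPM) all lay above the FUCO-0.5 libraries (388, 397 and 392 CPM), with a log2 fold change of 0.40 (SE 0.122, edgeR adjusted p = 0.0267). NAGS held 5.70, 3.03 and 5.32 CPM in FUCO-2 and 3.02, 1.99 and 3.74 CPM in FUCO-0.5, so the groups overlapped, with a log2 fold change of 0.68 (SE 0.221, edgeR adjusted p = 0.0382). The FUCO-1 means lay between for both genes. Its libraries held 475, 464 and 508 CPM of ASS1 and 4.31, 4.42 and 3.31 CPM of NAGS. They overlapped the FUCO-2 libraries for both genes and the FUCO-0.5 libraries for NAGS. FUCO-1 differed from neither dose past the test.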

How the results depend on the processing

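All 5 calls of RES against Model held in all 25 alternatives. Of 875 recomputed values, 816 kept their direction and side of the threshold, 23 lost a call, 9 gained one and 27 changed sign, all 27 among values that were not called. Members called in Model against Con ranged from 0 to 2 and in FUCO-2 from 0 to 2 when 1 library was left out. Library totals without TMM, chosen after seeing the data, gave 0 for Model and 2 for FUCO-2 and shifted the median of all genes in RES by 0.14 (log2). No filter gave 2 for FUCO-2, and in Model against Con it kept 2 with ASL called (-0.28, edgeR adjusted p = 0.0426) and SLC25A13 not (-0.21, edgeR adjusted p = 0.0983). A fit of 2 groups gave 1 for FUCO-1. Sign changes were SLC25A15 in Model (0.015 with library totals) and ASL in FUCO-1 (0.0041 without a filter, 0.00026 with 10 counts in every library, 0.019 with library totals, 0.0049 with 2 groups). With 1 library left out, values in Model against Con ran from -0.094 to 0.48 for CPS1, from -0.053 to 0.37 for ASS1 and from -0.13 to 0.012 for SLC25A15. In FUCO-0.5 they ran from -0.12 to 0.28 for ARG1, from -0.13 to 0.31 for NAGS and from -0.066 to 0.098 for SLC25A15. In FUCO-1 they ran from -0.065 to 0.036 for ASL, and in FUCO-2 from -0.27 to 0.12 for CPS1 and from -0.029 to 0.30 for ASL. The cause was not tested. With the replicate number as a block, members called stayed at 2, 0, 0, 1 and 5 in the 5 comparisons, and over all genes the replicate block gave 7275 calls in RES. Same-numbered libraries correlated between -0.20 and 0.19, above 0.1 in 7 of 45 pairs. Differently numbered libraries were not correlated, so these values cannot show whether the numbers pair the libraries. Depth limits OTC, CPS1, ARG1 and NAGS, whose counts stayed under 100 in each library.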
